A study of Mus musculus with 13 samples.

Results

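Receptors and postsynaptic proteins of fast inhibition were followed through translating mRNA of the mouse medial habenula. The 27 genes examined were subunits of GABA-A and glycine receptors, the scaffold gephyrin and its partners, and the neuronal chloride cotransporters. They were chosen by symbol, with earlier results of these data known. All 27 were listed among the 22682 genes that the 13 libraries shared and among the 23857 that the 12 immunopurified libraries shared.

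The tissue was medial habenula cut out of adult mice over 8 weeks old. All animals carried the Chat-TRAP DW167 transgene, in which a choline acetyltransferase (Chat) driver is used to put a GFP-tagged ribosomal protein into cholinergic cells, so that anti-GFP beads pull down ribosomes with the mRNA bound to them. The wild-type group held 6 immunopurified (IP) libraries from mice with the transgene alone, and the knockout group held 6 IP libraries from mice that also lacked Gpr151, an orphan G-protein-coupled receptor of habenular neurons. A single library came from the whole homogenate (input) of transgenic wild-type mice. Each library pooled 4 mice, or 3 mice for the libraries numbered 852 and 855, so every replicate is a pool of animals. The study asked what Gpr151 loss does in habenular neurons, and the input allows the captured RNA to be set against that of the dissected tissue.

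GABA-A receptors are pentameric chloride channels, most often built of alpha, beta and gamma subunits, with delta, epsilon, theta, pi and rho subunits giving rarer forms. Glycine receptors join alpha subunits with one kind of beta subunit, and it is the beta subunit that binds gephyrin. Whether either channel inhibits depends on chloride inside the cell, which the importer NKCC1 (Slc12a2) raises and the exporter KCC2 (Slc12a5) lowers.

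The depth was 28375912 to 64388596 gene counts per library. A count of 0 allows up to 3 counts, which was 0.0502 to 0.121 CPM in the IP libraries (CPM, counts scaled to the library's total over the shared genes), for counting error only. Gpr151 checked the labels: it had 382 to 589 CPM in the wild-type IP, 121 to 212 CPM in the knockout IP and, in whole tissue, 66.2 CPM, and the groups did not overlap (log2 fold change -1.63 ± 0.17 SE, adjusted p = 0.00592, edgeR). All 12 medial habenula markers were enriched in the wild-type IP, with a median log2 IP over input of 3.18. All 12 oligodendrocyte markers and 8 of 12 astrocyte markers were depleted in the wild-type IP, against 8 and 3 in the knockout IP, and none of these 24 was at 0 in any IP library. The summed astrocyte list reached 180 to 1140 CPM in wild-type IP libraries and 179 to 2055 CPM in knockout IP libraries, and the summed oligodendrocyte list 197 to 901 CPM and 245 to 1706 CPM. The libraries 1091 (wild type), 1099 and 1102 (knockout) carried the most RNA of such markers. A single repeated gene, the 45S ribosomal precursor Rn45s, took 2.25% to 12.6% of gene counts in the IP libraries. Its 0% for the input cannot be read as a level, since a symbol absent from that library's list also gives 0. Scaling by TMM in place of plain CPM moved the median log2 IP over input of all genes by 0.22.

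Receptor subunit mRNAs were mostly scarcer on the captured ribosomes than in the whole tissue. A gene was called depleted when every wild-type IP library had at most the inverse of a 2-fold ratio to the input, and enriched when every one had at least 2-fold, on CPM plus 1, given 5 CPM in the input or as the IP mean. Of the 27 genes, 20 reached that minimum; 8 were depleted (40% of the 20, against 11.1% of the 11434 genes at the minimum) and 0 were enriched (against 4.71%). The depleted genes were Gabra3, Gabra4, Gabra5, Gabrb1, Gabrg1, Gabrg3, Gabrd and Glra2, all of them receptor subunits. The median log2 IP over input was -2.19 over the 20 genes and -0.07 over all genes at the minimum. With the knockout IP over the same input, 5 of 20 were depleted (25%, against 7.11% of 11399 genes) and 0 enriched (against 3.41%), with a median of -1.55. These calls rest on size alone, with 1 input library. An edgeR test that assumes the input to vary like the IP libraries gave 7 of 25 tested genes as at least 2-fold lower at an adjusted p under 0.05 (8.59% of 16211 genes were), the depleted genes other than Gabrg1 (adjusted p = 0.0755). In bulk tissue fewer cells of a type and less RNA per cell cannot be told apart. Leaving out library 1091 raised the count of depleted genes from 8 to 13, by adding Gabrb2, Glra1, Glra3, Slc12a2 and Slc12a5. A rule that every library must pass gains calls easily when a library is left out. The share of all genes depleted in that setting was not counted, so the rise is not read as particular to these genes.

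**Figure D1:**
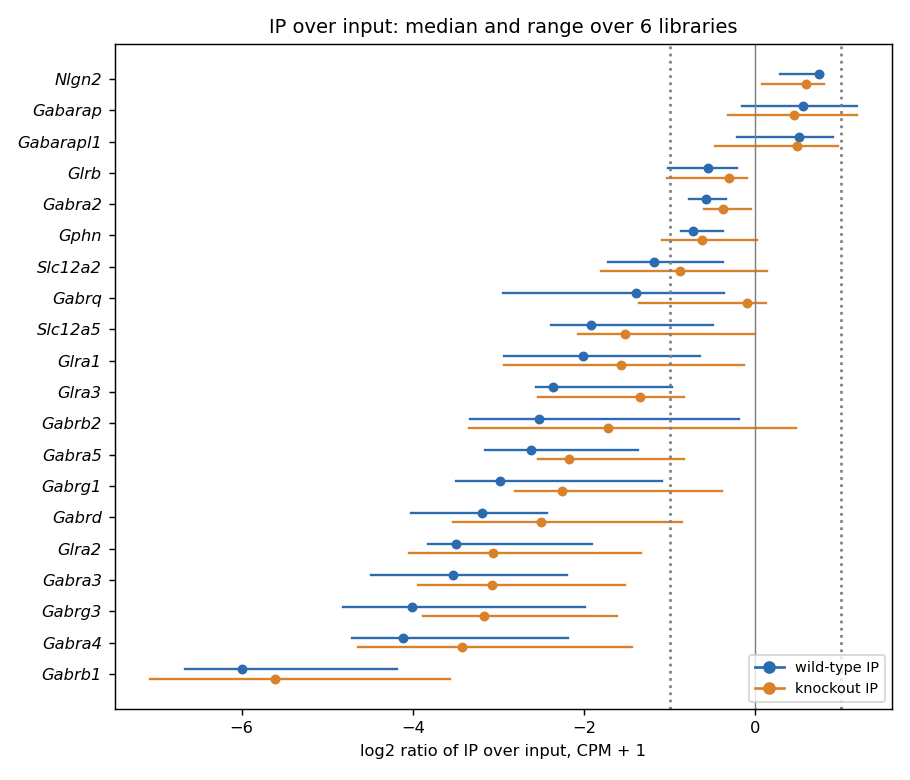
Log2 ratio of IP over input (CPM plus 1) for the 20 genes at the minimum level; points are medians and lines the range over 6 wild-type (blue) or 6 knockout (orange) IP libraries, all against the same input library, and dotted lines mark 2-fold. Gabrb1 lies lowest, with a wild-type median of -5.99, and Nlgn2 highest, at 0.74.

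Among the alpha subunits, which form the GABA site together with beta and set the affinity for benzodiazepines, Gabra2 stood apart from its relatives. Gabra2, the alpha2 subunit, had 38.9 CPM in the input library, 22.4 (lowest), 25.8 (median) and 30.5 (highest) CPM in the wild-type IP, and 25.3, 29.8 and 37.7 CPM in the knockout IP. Every IP library lay below the input, yet the log2 ratio was only -0.58 (range -0.77 to -0.34), and the 12 IP libraries spanned 1.68-fold. Gabra4, the alpha4 subunit found mostly in extrasynaptic receptors, had 368.8 CPM in the input library, 13.2, 20.4 and 80.4 CPM in the wild-type IP and 13.9, 33.5 and 135.8 CPM in the knockout IP. All IP libraries were again below the input, but here by a log2 ratio of -4.11 (range -4.71 to -2.18), with libraries 1091, 1099 and 1102 the highest. Gabra3 had a log2 ratio of -3.53 and Gabra5, a subunit best known from the hippocampus, one of -2.62. Gabra6, a subunit of cerebellar granule cells, had 0 counts in all 13 libraries.

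Gabra2 and Gabra4 are near neighbours. In GENCODE M21 on GRCm38 they lie with Gabrg1 and Gabrb1 in one cluster on chromosome 5: Gabrg1 (chr5:70751047-70842617, minus strand), Gabra2 (chr5:70957597-71095849, minus strand), Gabra4 (chr5:71569749-71658308, minus strand) and Gabrb1 (chr5:71658113-72149037, plus strand). The log2 IP over input along the cluster was -2.98 for Gabrg1, -0.58 for Gabra2, -4.11 for Gabra4 and -5.99 for Gabrb1. Gabra2 thus differed from both flanking genes in each of the 6 wild-type IP libraries, whose range for Gabra2 overlapped with none of the other 3. In the knockout IP the range of Gabra2 (-0.60 to -0.04) overlapped with that of Gabrg1 (-2.80 to -0.38), though not with those of Gabra4 and Gabrb1. Gabra4 and Gabrb1 overlap head to head, with 46 exonic bases in common on opposite strands, which is 0.76% of the exonic length of Gabra4. Because these neighbours differ in capture, the bases upstream of their RefSeq starts (GRCm38.p6) are shown, 250 bases or the stretch before the first annotated exonic base, with capitals marking matches to TAATTA, a core shared by many homeodomain sites.
Gabrg1 chr5:70842618-70842867 (-): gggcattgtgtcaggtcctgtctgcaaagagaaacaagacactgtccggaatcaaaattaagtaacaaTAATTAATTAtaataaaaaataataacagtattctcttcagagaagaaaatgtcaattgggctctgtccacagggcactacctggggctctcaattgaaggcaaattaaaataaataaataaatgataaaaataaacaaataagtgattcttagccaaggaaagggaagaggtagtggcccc
Gabra2 chr5:71095850-71096099 (-): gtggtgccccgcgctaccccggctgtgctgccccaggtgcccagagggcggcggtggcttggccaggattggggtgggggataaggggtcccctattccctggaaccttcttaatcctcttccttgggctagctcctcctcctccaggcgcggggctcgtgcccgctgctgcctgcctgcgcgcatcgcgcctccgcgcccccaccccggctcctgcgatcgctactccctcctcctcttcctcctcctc
Gabra4 chr5:71658364-71658558 (-): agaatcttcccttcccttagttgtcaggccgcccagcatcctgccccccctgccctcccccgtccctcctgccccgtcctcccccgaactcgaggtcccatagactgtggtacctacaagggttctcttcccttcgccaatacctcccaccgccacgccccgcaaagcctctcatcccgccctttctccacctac
The Gabrg1 stretch held 35.6% G and C with 1 CpG, the Gabra2 stretch 70% with 18 CpG, and the 195 bases for Gabra4 63.6% with 10 CpG. Over all 32851 mouse windows of 250 bases the median was 52.4% G and C (quartiles 45.2% and 61.2%) and 6 CpG (quartiles 2 and 16). Gabrg1 therefore lay below the lower quartile and Gabra2 above the upper one. Gabra4, over its 195 bases, lay above the upper quartile of G and C too, with its log2 ratio of -4.11. No stretch was printed for Gabrb1. Both strands were searched for 5 motifs. TAATTA occurs in 4.84% of all windows and the TATA box form TATAAA in 12.4%. The E-box CACGTG occurs in 6.02%, another E-box, CAGCTG, in 13.001%, and the CREB site TGACGTCA in 1.55%. The only matches in the 3 stretches were 2 overlapping copies of TAATTA in Gabrg1, and a match describes the letters and not a used site.

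Within the alpha subunits analysed here, counts per kb of exon gave Gabra2 4.55% of the class in the input, 28.6% ± 9.2 (SD, n = 6) in the wild-type IP and 23.7% ± 9.8 (SD, n = 6) in the knockout IP. The share was above that of the input in 12 of 12 IP libraries. Gabra4 went the other way, from 54.2% in the input to 32.0% ± 8.0 in the wild-type IP and 36.0% ± 9.7 in the knockout IP, below the input in each library. On plain counts the Gabra2 share in the wild-type IP was 39.3%, so its size depends on the gene model while its side of the input did not.

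The beta subunits, which line the GABA site and are needed for assembly, parted widely. Gabrb1 had 438.9 CPM in the input library but 3.35, 5.94 and 23.2 CPM in the wild-type IP and 2.27, 8.31 and 36.1 CPM in the knockout IP. The median wild-type library lay 63.8-fold below the input on CPM plus 1, and even the highest IP library stayed far below it. Gabrb2 had 268.9 CPM in the input library, 25.9, 46.5 and 236.4 CPM in the wild-type IP and 25.5, 81.0 and 375.3 CPM in the knockout IP. Library 1091 came close to the input and library 1099 passed it, so Gabrb2 met neither call (log2 IP over input -2.53, range -3.33 to -0.19). Of the beta subunits analysed here, Gabrb2 made up 57.1% per kb in the input, 94.6% ± 1.6 (SD, n = 6) in the wild-type IP and 95.5% ± 0.6 (SD, n = 6) in the knockout IP, above the input in 12 of 12 libraries. On plain counts the Gabrb2 share was 38.0% in the input, where Gabrb1 then led with 62.0%. It was 89.0% in the wild-type IP and 90.7% in the knockout IP, again above the input in 12 of 12 libraries.

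The gamma subunits, which help place receptors at synapses and complete the benzodiazepine site, were both depleted among those analysed here. Gabrg1 had 31.5 CPM in the input library, 1.88, 3.12 and 14.3 CPM in the wild-type IP and 3.66, 5.82 and 23.9 CPM in the knockout IP. Gabrg3 had 63.8 CPM in the input library, 1.31, 3.03 and 15.3 CPM in the wild-type IP and 3.42, 6.59 and 20.2 CPM in the knockout IP. For both genes every IP library was below the input and the genotypes overlapped, and library 1091 stood far above the other wild-type libraries. Under TMM scaling Gabrg1 was no longer called. Gabrg1 took 42.8% of the 2 gamma genes per kb in the input and 61.5% ± 13.9 (SD, n = 6) in the wild-type IP. On plain counts these were 33.1% and 52.1% ± 15.7, so the size of the share depends on the gene model.

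Of the rarer subunits, Gabrd, the delta subunit of extrasynaptic receptors that pass tonic current, had 40.9 CPM in the input library, 1.59, 3.84 and 6.78 CPM in the wild-type IP and 2.62, 7.44 and 22.2 CPM in the knockout IP. Its log2 IP over input was -3.19, and 3 knockout libraries exceeded every wild-type library. Gabrq, the theta subunit, had 7.96 CPM in the input library, 0.161, 2.43 and 5.96 CPM in the wild-type IP and 2.49, 7.41 and 8.75 CPM in the knockout IP. Here 4 of 6 knockout libraries were above every wild-type library, while the lowest knockout libraries fell inside the wild-type range. Gabre, the epsilon subunit, stayed under the minimum, with 2.68 CPM in the input and at most 0.862 CPM in any IP library. Gabrp, the pi subunit known from reproductive tissue, had 1 count in the input and at most 1 count in any IP library.

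The rho subunits, which form the slow GABA-C type receptors known from the retina, included the sole receptor subunit that was higher in every IP library than in the input. Gabrr1 had 28 counts or 0.635 CPM in the input, with an exact 95% Poisson interval of 0.422 to 0.918 CPM. It had 1.25, 2.01 and 4.65 CPM in the wild-type IP and 1.12, 2.09 and 3.20 CPM in the knockout IP. All 12 IP libraries lay above the upper bound of the input, a bound that covers counting error only. Gabrr2, whose gene ends 36.7 kb before Gabrr1 on chromosome 4, had 2.18 CPM in the input (interval 1.76 to 2.66 CPM), 0.253, 0.779 and 0.994 CPM in the wild-type IP and 0.389, 0.591 and 0.748 CPM in the knockout IP. For Gabrr2 every IP library was below the input. Gabrr3 had 0 counts in the input and at most 15 counts in an IP library. All 3 rho genes were under the 5 CPM minimum and so outside the counts of called genes.

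Gabrr1 made up 21.2% of the rho class per kb in the input, 72.7% ± 11.9 (SD, n = 6) in the wild-type IP and 74.1% ± 5.6 (SD, n = 6) in the knockout IP. Since the tandem neighbours fall on opposite sides of the input, the bases before their RefSeq starts (GRCm38.p6) are printed up to the first annotated exonic base, with no capitals because none of the searched motifs matched.
Gabrr2 chr4:33062862-33062998 (+): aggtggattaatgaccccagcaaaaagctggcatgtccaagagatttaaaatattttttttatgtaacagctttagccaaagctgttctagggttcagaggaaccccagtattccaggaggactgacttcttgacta
Gabrr1 chr4:33132306-33132520 (+): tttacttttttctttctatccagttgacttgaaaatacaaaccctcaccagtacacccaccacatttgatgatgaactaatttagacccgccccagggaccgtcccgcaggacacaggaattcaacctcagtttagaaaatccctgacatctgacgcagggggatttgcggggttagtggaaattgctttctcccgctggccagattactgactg
The 137 bases for Gabrr2 held 40.9% G and C and 0 CpG, and the 215 bases for Gabrr1 47.0% and 6 CpG. Neither stretch had the high G and C content of the Gabra2 one.

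**Figure D2:**
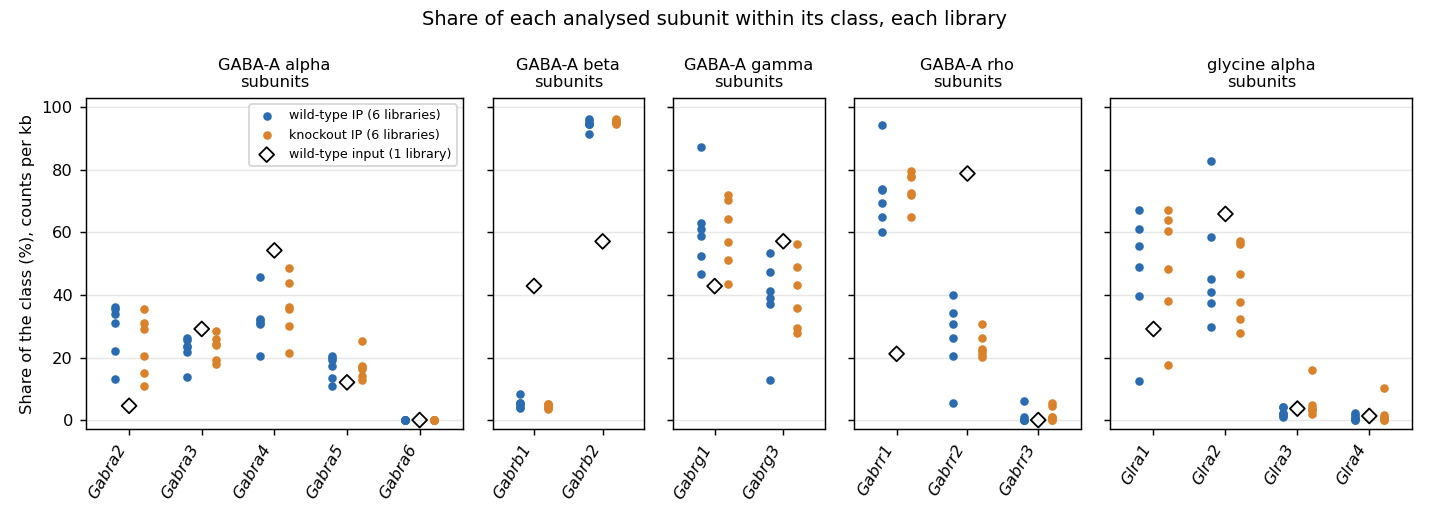
Share of each analysed subunit within its class, from counts per kb of exon, in each library; blue and orange circles are the 6 wild-type and 6 knockout IP libraries and the open diamond the input. Gabra2, Gabrb2, Gabrg1 and Gabrr1 lie above the diamond in every IP library, and Gabrb2 sits above 91% throughout the IP.

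Glycine receptor alpha and beta subunits parted in the same tissue. Glra1, the adult alpha subunit of spinal cord and brainstem, had 12.2 CPM in the input library, 0.720, 2.27 and 7.42 CPM in the wild-type IP and 0.731, 3.87 and 11.1 CPM in the knockout IP. Glra2, the alpha subunit prominent before birth, had 36.0 CPM in the input library, 1.61, 2.296 and 8.88 CPM in the wild-type IP and 1.25, 3.43 and 13.7 CPM in the knockout IP. Every IP library was below the input for both, and the genotypes overlapped. Glra3 had 5.85 CPM in the input and at most 2.85 CPM in any IP library, and Glra4 had 20 counts in the input and at most 14 in an IP library. Glrb, the beta subunit, was close to the input by contrast, with 180.5 CPM there, 88.4, 122.9 and 155.3 CPM in the wild-type IP and 87.8, 146.2 and 168.2 CPM in the knockout IP. Its log2 ratio was -0.55 (range -1.02 to -0.22), against -2.02 for Glra1, -3.49 for Glra2 and -2.36 for Glra3, and in the wild-type IP Glrb was the most abundant receptor subunit per length at 25.9 ± 5.9 RPKM (CPM per kb of exon; SD, n = 6).

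The postsynaptic scaffold and adhesion genes lay close to the tissue level. Gphn, gephyrin, the lattice protein under glycine and many GABA-A receptors, had 92.0 CPM in the input library, 50.1, 55.1 and 70.7 CPM in the wild-type IP and 42.8, 59.9 and 93.1 CPM in the knockout IP. Nlgn2, neuroligin 2, the adhesion protein of inhibitory synapses, had 105.7 CPM in the input library, 129.7, 177.4 and 183.6 CPM in the wild-type IP and 111.6, 160.6 and 185.8 CPM in the knockout IP. Every IP library was above the input for Nlgn2, with a log2 ratio of 0.74 (range 0.29 to 0.79), while Gphn had -0.73 (range -0.86 to -0.37). Gabarap and Gabarapl1, ubiquitin-like proteins that bind the gamma subunit in trafficking and also serve autophagy, had log2 ratios of 0.55 (range -0.15 to 1.19) and 0.51 (range -0.21 to 0.92). For both genes the IP libraries lay on either side of the input. Antisense genes share exonic bases with 7 of the 27 genes, at 28.3% of the exonic length for Gabarapl1 and at most 6.53% for the others, and no source used here says whether reads were counted by strand.

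Ordered by mean level per length in the wild-type IP, Gabarapl1 (423 ± 105 RPKM) and Gabarap (154 ± 51 RPKM) led, followed by Nlgn2 (29.0 ± 3.7 RPKM), Glrb (25.9 ± 5.9 RPKM), Gphn (15.1 ± 2.1 RPKM), Gabrb2 (11.9 ± 12.5 RPKM) and Slc12a5 (11.5 ± 6.9 RPKM; SD, n = 6 throughout). Library ranges did not overlap between Gabarapl1 and Gabarap, between Gabarap and Nlgn2, and between Glrb and Gphn. In 3 further pairs of neighbours the ranges overlapped across libraries but the first gene was higher within each of the 6: Slc12a5 over Gabra4 (4.85 ± 4.16 RPKM), Gabrr2 over Glra3, and Gabre over Glra4. The remaining pairs overlapped and kept no common order in all 6 libraries, among them Gabra4 against Gabra2 (3.44 ± 0.43 RPKM) and Gabra2 against Gabra3 (3.18 ± 1.95 RPKM). Gabra2 had the smallest SD relative to its mean among the 3 alpha subunits. In the input the order per length was led after Gabarapl1 and Gabarap by Gabra4 (60.6 RPKM) and Gabrb2 (42.3 RPKM), and Gabrb1 (31.7 RPKM) ranked above Gphn (24.5 RPKM).

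**Figure D3:**
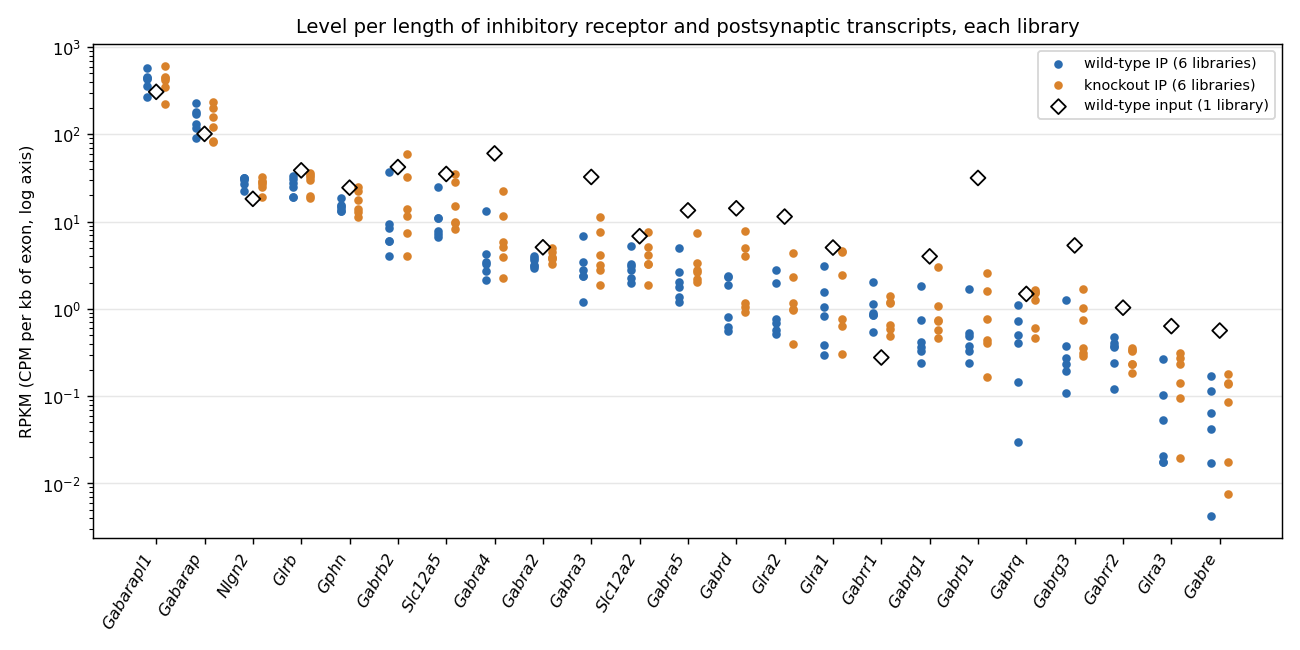
Level in RPKM (CPM per kb of exon) on a log axis for the 23 genes with a wild-type IP mean above 0.05, ordered by that mean; each circle is 1 IP library and each open diamond the input library. Diamonds lie far above the circles for Gabrb1, Gabra4 and Gabra3, and below them for Gabrr1.

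Both chloride cotransporters were lower in each wild-type IP library than in the input without meeting the call. Slc12a5, the exporter KCC2, had 262.4 CPM in the input library, 49.3, 69.6 and 186.5 CPM in the wild-type IP and 61.6, 93.0 and 262.3 CPM in the knockout IP. Slc12a2, the importer NKCC1, had 74.5 CPM in the input library, 21.9, 32.2 and 57.3 CPM in the wild-type IP and 20.6, 40.5 and 82.3 CPM in the knockout IP. Libraries 1091 and 1099 were the highest of their groups for both genes, and 1099 was level with the input for Slc12a5 and above it for Slc12a2. Per kb of exon, Slc12a5 exceeded Slc12a2 in all 13 libraries. The log2 ratio was 2.37 in the input, 1.79 ± 0.41 (SD, n = 6) in the wild-type IP and 1.98 ± 0.46 (SD, n = 6) in the knockout IP, which are 5.17-fold, 3.45-fold and 3.94-fold. The ratio lay below that of the input in 11 of 12 IP libraries. The genotypes differed by 0.19, with an exact two-sided permutation p of 0.465 over all splits into 6 and 6, where the smallest possible is 0.00216. By library set the difference was 0.29 (682 and 683), -0.20 (852 and 855) and 0.27 (the 8 later libraries, exact permutation p = 0.514), and without library 1092 the pooled difference was 0.040.

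Partner proteins of these receptors lay nearer to the input. Of 24 inhibitory synapse partners, 3 were enriched and 1 was depleted in the wild-type IP, against 4.71% and 11.1% of all genes at the minimum. The list's median log2 ratio was -0.17. The enriched genes were Lhfpl4, the GARLH protein that carries GABA-A receptors to neuroligin 2 (log2 ratio 1.68, range 1.09 to 2.04), Mdga1, a binder of neuroligin 2 (1.83, range 1.44 to 1.99), and Plcl1, a GABA-A receptor trafficking protein (1.48, range 1.10 to 1.80). The depleted gene was Mkln1, muskelin (-1.58, range -2.295 to -1.13). The highest of the list per length were Dynll2, a dynein light chain that binds gephyrin (179 ± 77 RPKM), Pfn2, a profilin (111 ± 16 RPKM), and Nsf, a vesicle fusion ATPase (88.8 ± 31.8 RPKM; SD, n = 6). The list was chosen with earlier results of these data known, so its counts describe it.

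Of 11 genes of chloride regulation 9 reached the minimum, and 0 were enriched or depleted (4.71% and 11.1% of all genes were). Highest per length in this list were Ckb, brain creatine kinase (109.8 ± 25.4 RPKM), Stk39, the SPAK kinase that sets cotransporter activity (49.8 ± 3.8 RPKM), and Wnk2, a kinase upstream of it (29.4 ± 5.5 RPKM; SD, n = 6).

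Genes for making and clearing GABA and glycine were often depleted as well in the wild-type IP. Of 9 such genes 7 reached the minimum and 4 were depleted, against 11.1% of all genes at the minimum. These were the synthetic enzymes Gad1 (log2 ratio -2.45) and Gad2 (-3.73), the vesicular transporter Slc32a1 (-2.56), and the plasma membrane GABA transporter Slc6a11 (-3.26). In the knockout IP 0 of 7 were depleted against the same input (7.11% of all genes were), with a median log2 ratio of -1.49 in place of -2.45. Highest per length were the catabolic enzymes Aldh5a1 (34.6 ± 7.8 RPKM) and Abat (20.3 ± 11.8 RPKM), with Gad2 next (8.49 ± 7.85 RPKM; SD, n = 6). Slc6a5, the neuronal glycine transporter, had a median of 0 CPM in either IP group.

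Levels of most subunits moved with the RNA of other cells across the 12 IP libraries. A score was the mean log2 CPM of 39 markers of astrocytes, oligodendrocytes, their precursors and microglia, none of which is a receptor or scaffold gene studied here. It ran from 1.503 through a median of 2.12 to 3.76 in the wild-type IP and from 1.44 through 2.63 to 4.64 in the knockout IP (difference of means 0.65, exact two-sided permutation p = 0.303). In edgeR, with library set and genotype as terms, 17 of the 23 tested genes had a slope past an adjusted p of 0.05. That is 73.9%, against 30% of 14317 genes; 15 were higher with the score (17.8% of all genes were) and 2 lower (12.2% of all genes). The median slope was 0.79 log2 units per unit of score for the 23 genes and -0.01 for all genes. The subunits moved with markers of other neurons as well: on a like score of 24 markers of GABAergic, thalamic and lateral habenula neurons, 15 of 23 genes passed (26.4% of all genes did), with a median slope of 1.24. Libraries 1099, 1102 and 1091 were the highest on both scores, so the counts from these scores are not independent.

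All 8 depleted genes were among those that rose with the score, with slopes of 0.78 to 1.25. The share that rose among all genes called depleted was not counted, so nothing particular to these 8 is read from it. The steepest were Gabrg3 (1.25 ± 0.14 SE, adjusted p = 5.49e-05), Glra3 (1.15 ± 0.28, adjusted p = 0.00835), Gabrb2 (1.14 ± 0.09, adjusted p = 2.98e-06), Glra1 (1.13 ± 0.18, adjusted p = 0.00072) and Gabrb1 (1.10 ± 0.09, adjusted p = 4.64e-06), all by edgeR. Gabra4 (0.91), Gabrd (0.90), Gabrq (0.86), Gabra3 (0.84), Slc12a5 (0.80), Gabra5 (0.79), Gabrg1 (0.78), Slc12a2 (0.40) and Gphn (0.33) also rose, as did Glra2 (1.00). Gabarap (-0.35 ± 0.07, adjusted p = 0.00286, edgeR) and Gabarapl1 (-0.27 ± 0.08, adjusted p = 0.0275, edgeR) fell. Gabra2 had a slope of 0.08 (95% interval -0.09 to 0.26), Glrb one of -0.02 (-0.26 to 0.22), Nlgn2 -0.12 (-0.26 to 0.01) and Gabrr1 -0.26 (-0.74 to 0.23), none past the threshold. The intervals of Gabra2 and Glrb thus held no slope as steep as the lowest among the depleted genes.

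These slopes rested on the 3 libraries with the highest score. Without 1091, 1099 and 1102, a setting chosen after seeing the data, 0 of 23 genes passed (48 of 14245 genes did), with 9 of the 23 at an unadjusted p under 0.05 (16% of all genes were) and a median slope of 0.42. Of the 17 genes, Gabrg1 (-0.43), Slc12a2 (-0.05) and Gabarapl1 (0.13) then had a slope of the opposite sign. Within the 8 later libraries 17 of 23 passed, and the 4 earlier libraries leave no degrees of freedom for this model. The part of other cells' RNA in the low IP over input ratios was not tested.

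**Figure D4:**
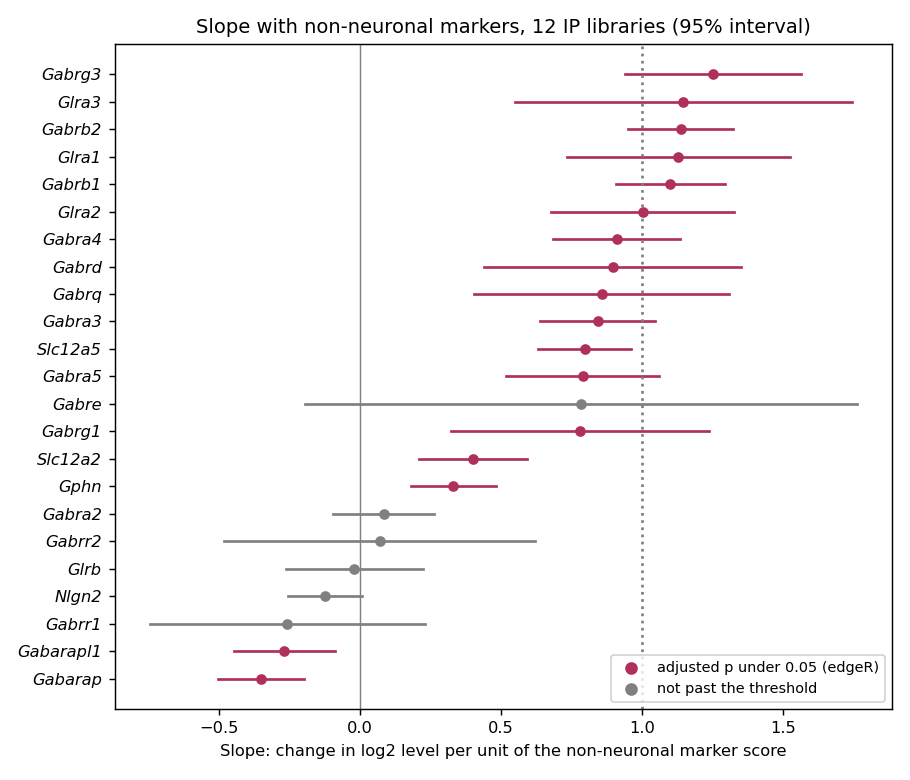
Slope of log2 level on the score of 39 non-neuronal markers, with 95% intervals, for the 23 genes tested over 12 IP libraries; red marks an edgeR adjusted p under 0.05, and a slope of 1, dotted, means a doubling of the level for each doubling of the markers. Receptor subunits crowd between 0.78 and 1.25, while Gabra2, Glrb, Nlgn2 and both rho genes lie around 0.

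Between genotypes no gene of the group passed the test. In edgeR, with library set as a term, 0 of 23 tested genes had an adjusted p under 0.05, against 2 of 14317 genes (0.014%), and DESeq2 also called 0 of 23. At an unadjusted p under 0.05 there were 2 of 23 by either tool, against 3.06% of all genes in edgeR and 4.56% in DESeq2. All 27 genes had overlapping ranges between genotypes, but the share of all genes that overlap was not counted, so nothing particular to these genes is read from it. The remaining 4 genes, Gabra6, Gabrp, Gabrr3 and Glra4, had too few counts to be tested.

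The gene with the largest difference was Gabrq, whose values are given above, at a log2 fold change of 1.49 ± 0.49 SE (unadjusted p = 0.0103, adjusted p = 0.999, edgeR). It was higher in the knockout in each library set, by 0.67 (682 and 683), 1.59 (852 and 855) and 1.14 (later libraries) in log2 of CPM plus 1. Gabrd followed at 1.12 ± 0.46 (unadjusted p = 0.0316, adjusted p = 0.999, edgeR). The intervals of the best measured genes bound the difference more closely: the 95% interval was -0.05 to 0.56 for Gabra2, -0.25 to 0.58 for Glrb, -0.21 to 0.59 for Gphn and -0.33 to 0.14 for Nlgn2. For Gabrb2 it was -0.46 to 1.87, so neither a small fall nor a rise beyond 2-fold lay outside it.

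The fold change was above 0 for 18 of 23 genes, with a median of 0.54, against 0.002 for all genes tested. Knockout libraries 1099 and 1102 and wild-type library 1091 held the most RNA of non-neuronal markers. The median fold change was 0.86 for 12 astrocyte and 0.79 for 12 oligodendrocyte markers. It was 0.70 for 6 oligodendrocyte precursor markers and 0.37 for 9 microglia markers. The score itself had an exact two-sided permutation p of 0.303 between genotypes. The part of other cells' RNA in the fold changes of the 23 genes was not tested. With the score as a further term the median of the 23 genes was 0.07, 15 of 23 were above 0 and 0 passed. Gabrq then had 1.07 ± 0.32 (unadjusted p = 0.00511, edgeR; adjusted p = 0.999) and Gabrd 0.46 ± 0.32. Without library 1091, 11 of 23 genes had an unadjusted p under 0.05 (7.15% of all genes did) and the median was 0.91, still with 0 past the adjusted threshold. Without library 1099 the median was 0.21, and without 1091, 1099 and 1102 it was 0.33.

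**Figure D5:**
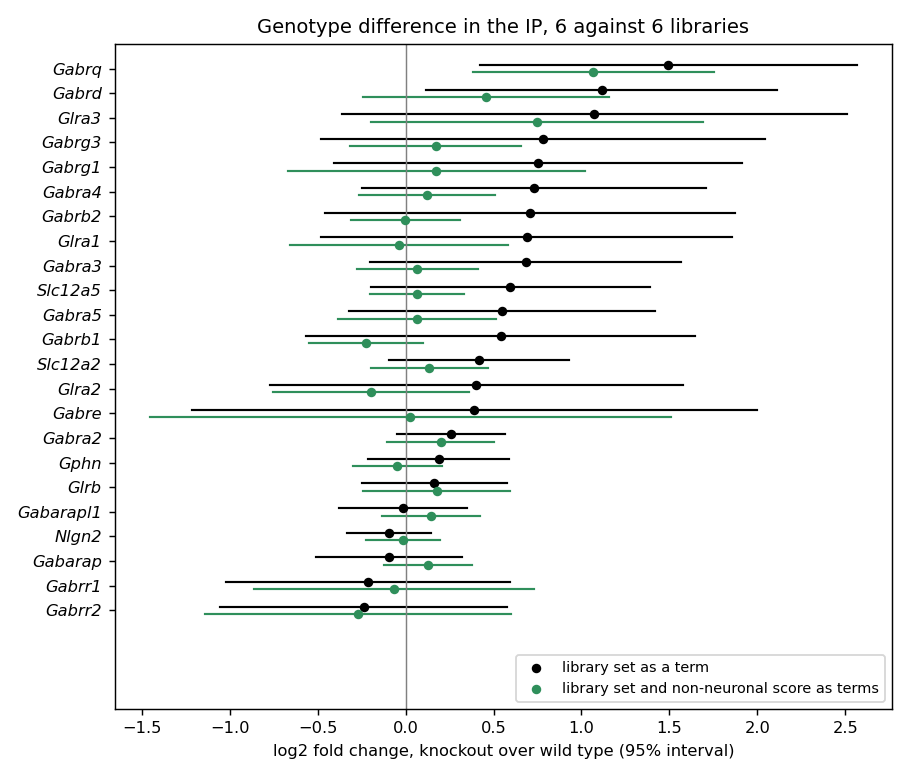
Log2 fold change of knockout over wild type with 95% intervals for the 23 tested genes, 6 against 6 IP libraries, from edgeR with library set as a term (black) and with the non-neuronal score as a further term (green). Most black points lie right of 0 around a median of 0.54 and the green points nearer to 0, around 0.07, with Gabrq the farthest right in both.

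None of the 3 other lists held a gene past the genotype test. The inhibitory synapse partners gave 0 of 24 and the chloride regulation genes 0 of 11. The GABA and glycine supply genes gave 0 of 7, with 4 at an unadjusted p under 0.05 (3.06% of all genes) and a median log2 fold change of 1.09. In that list Gad1 had 1.16, Gad2 1.36 and Slc32a1 1.42, and all 7 tested genes rose with the non-neuronal score. Of the 24 partners, 3 rose with the score (Nsf, Plcl2 and Enah) and 5 fell (Lhfpl4, Mdga1, Gabarapl2, Dynll1 and Pfn2). Of the 11 chloride regulation genes Slc12a4 rose. Among all tested genes 17.8% rose and 12.2% fell. Nothing particular to the partners or the chloride regulation genes is read from these counts.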

How the data were processed

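Translating ribosome affinity purification and RNA sequencing were done on pools of mice. The deposited values were counts of reads per gene symbol for each of 13 libraries; the tools named in the submitters' processing notes are STAR 2.3.0e and HTSeq, besides DESeq2, and the build is mm10. Per the labels' protocols, cDNA was amplified with the Ovation kit before library construction. No source used here gives the gene annotation or strand setting, and the libraries listed 24454, 32531 or 37328 symbols, so shared symbols were used. Summary rows naming no gene were left out. Among them were alignments outside genes (9.44% to 16.6% per IP library) and alignments not unique (25.2% to 53.2%, lowest in library 1091). Labels give no treatment, while names of deposited tables mention saline and, for the input, saccharin; no source used here says whether the input matches the IP animals.

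The genes and lists were chosen with earlier results of these data known. Plain CPM over the 22682 shared genes and a pseudocount of 1 served the IP over input rule. Genotype was tested over 12 IP libraries with edgeR 4.0.16 in R 4.3.3 (filterByExpr at 10 counts and 15 in total, TMM, robust quasi-likelihood test, library set as a term, Benjamini-Hochberg adjustment over 14317 genes, threshold 0.05), and with DESeq2 1.42.0 as an alternative. The slope on the non-neuronal score used the same model with score and genotype. The scripts were tested on simulated data. The 4 earlier libraries form 2 library sets and the 8 later ones another, and replicate numbers follow accession order. RPKM used the union of exons in GENCODE M21. Named genes were all 27 members, Gpr151, and from the other lists those called, or the 3 highest per length. Gad1, Gad2 and Slc32a1 in the genotype test were named after their values were seen. Some genes of the chloride regulation and GABA and glycine supply lists are not reported here and were left out of the counts of those lists. Other scalings, filters, folds, gene lengths and left-out libraries were tried.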

Additional observations from a re-analysis of the deposited data

Results flagged for a closer look

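Of 52 groups of 6 values examined (a gene's CPM in 1 genotype, or the cotransporter ratio), 12 had a library far from the other 5 by Dixon's criterion at the 95% level; chance flags about 1 in 20 groups, and values from the same library are not independent. Wild-type library 1091, which has the highest non-neuronal score of its group, accounted for 8: Gabra4 at 80.4 CPM (others at most 26.3), Gabrb1 at 23.2 CPM (others at most 7.33), Gabrb2 at 236.4 CPM (others at most 59.9), Gabrg1 at 14.3 CPM (others at most 5.88), Gabrg3 at 15.3 CPM (others at most 4.54), Glra3 at 2.48 CPM (others at most 0.942), Gphn at 70.7 CPM (others at most 57.5) and Slc12a5 at 186.5 CPM (others at most 82.9). Knockout library 1099, which has the highest score of all, accounted for Gabra5 at 22.1 CPM (others at most 10.1) and Gabrg1 at 23.9 CPM (others at most 8.52). Wild-type library 1092 had Gabrr3 at 0.302 CPM (others at most 0.0497), from 15 counts, and the lowest log2 ratio of Slc12a5 over Slc12a2 at 1.02 (others at least 1.80). The part of other cells' RNA in these values was not tested.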

How the results depend on the processing

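No paired analysis was possible because the labels number no replicates across groups and tie none of the 8 later libraries to another; the library set term already compares 682 with 683 and 852 with 855. The depleted count of 8 was 5 with the knockout IP, 8 to 13 when leaving out 1 wild-type library each, and 7 to 10 under the other alternatives tried; 0 genes were enriched in each. The count of genes moving with the non-neuronal score (17) was 14 to 17 when leaving out 1 library each and 0 without 1091, 1099 and 1102, where fewer libraries and a narrower score range remained. The genotype count was 0 in each of 21 alternatives, and the cotransporter difference of 0.19 was 0.27 in the 8 later libraries and ran from 0.040 (without 1092) to 0.34 (without 1100) when leaving out 1 library each, with an exact permutation p of 0.173 or more; gene length cannot change it. No genotype fold change was called in any of them, and these changed sign. With the 4 earlier libraries alone: Gabrb1 -0.22, Gabrr1 0.67, Glra1 -0.20, Glra2 -0.73, Gphn -0.24, Gabarap 0.10 and Gabarapl1 0.0039. With the score as a term: Gabrb1 -0.22, Gabrb2 -0.0012, Glra1 -0.039, Glra2 -0.20, Gphn -0.049, Gabarap 0.13 and Gabarapl1 0.14. Without 1091, 1099 and 1102: Gphn -0.016, Gabarap 0.036 and Gabarapl1 0.059. Leaving out 1 library each, fold changes ran from -0.49 to 0.085 for Gabrr1, -0.063 to 0.91 for Glra2, -0.21 to 0.048 for Gabarap and -0.096 to 0.083 for Gabarapl1. Slopes that changed sign without the 3 libraries were Gabra2 -0.28, Gabrg1 -0.43, Nlgn2 0.095, Slc12a2 -0.050 and Gabarapl1 0.13; with a filter of 1 CPM in 6 libraries Glrb had 0.0058. Leaving out 1 library each, slopes ran from -0.0014 to 0.16 for Gabra2, -0.021 to 0.20 for Gabrr2 and -0.13 to 0.088 for Glrb. The cause was not tested. Genes under the minimum, the rho subunits among them, rest on few counts, and 1 input library gives no spread for the tissue.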

Other observations

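Markers of neighbouring neurons were also examined, since the dissection can hold thalamus and lateral habenula. Of 7 lateral habenula markers 6 were depleted in the wild-type IP (median log2 ratio -2.38), and of 9 thalamic markers 4 were (median -2.22). In the knockout IP 3 and 0 were (medians -2.13 and -1.62). Of all genes at the minimum, 11.1% were depleted in the wild-type IP and 7.11% in the knockout IP. Of the 9 markers of GABAergic neurons 5 reached the minimum and 4 of those were depleted (1 in the knockout IP), and Npy, Dlx1 and Dlx6os1 were at 0 in some IP library. The summed GABAergic list ran from 16.6 to 156.7 CPM in the wild-type IP, from 52.8 to 328.7 CPM in the knockout IP, and stood at 650.0 CPM in the input. Of its 7 genes tested between genotypes with edgeR, 0 passed and 6 had an unadjusted p under 0.05 (3.06% of all genes did), with a median log2 fold change of 1.16. Gad1, Gad2 and Slc32a1 were members of both this list and the GABA and glycine supply list, so the results of these lists partly repeat each other. The part of these markers' cells in the values of Gabrq, Gabrd and the GABA supply genes was not tested.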
